A study of Mus musculus with 3 samples.

Results

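The genes described here are 34 genes of glucose breakdown and of the response to low oxygen, followed across the cell classes of the mouse femoral artery after a sham operation and after wire injury. They were taken by symbol from a fixed list. All 34 symbols were found among the 32285 gene rows of each count matrix, in 35 rows, since Aldoa has a second, nearly silent row that was added to the first. The 25 enzymes and transporters cover glucose uptake (Slc2a1, Slc2a3), the hexokinases (Hk1, Hk2, Hk3), Gpi1, the phosphofructokinases (Pfkl, Pfkm, Pfkp), their regulators (Pfkfb3, Pfkfb4) and the steps from aldolase to pyruvate kinase (Aldoa, Aldoc, Tpi1, Gapdh, Pgk1, Pgam1, Eno1, Eno2, Pkm). They also cover lactate dehydrogenase (Ldha, Ldhb), lactate and pyruvate transport (Slc16a1, Slc16a3) and Pdk1. The 9 hypoxia factors and targets are Hif1a, Epas1, Egln3, Bnip3, Bnip3l, Ndrg1, Ero1l, Adm and Ankrd37. In the study, 8-week-old male wild-type (WT) mice had femoral artery injury (FAI) by wire or a sham operation, and arteries were taken 2 days (D2) or 7 days (D7) after injury. No harvest time is given here for the Sham group. DAPI-sorted live single cells of 6 mice were pooled into 1 library per group, made with the Chromium 3' v3 chemistry, and with 1 library in each group no test between groups was possible.

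Glycolysis converts glucose to pyruvate in the cytosol, and lactate dehydrogenase turns pyruvate into lactate, which leaves the cell through monocarboxylate transporters. The transcription factors HIF-1 alpha (Hif1a) and HIF-2 alpha (Epas1) are degraded when oxygen is present, after prolyl hydroxylases such as PHD3 (Egln3) mark them. HIF-1 raises transcription of most glycolytic genes, and activated macrophages and neutrophils are known to rely on glycolysis.

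10 members were at least 1.5-fold higher at D2 than in Sham in monocytes/macrophages, fibroblasts and endothelial cells alike, so the sequences just upstream of 4 of them are shown. These 10 were Gpi1, Aldoa, Tpi1, Gapdh, Pgk1, Pgam1, Eno1, Pkm, Ldha and Hif1a. The share of all genes higher at D2 in all of these classes was not counted, so the number 10 has nothing to be set against. The sequences are the 250 bases before the RefSeq start in GRCm38.p6, the mm10 assembly. Capitals mark ACGTG, a core that HIF can bind, or its reverse complement CACGT, and both overlap where CACGTG occurs, a sequence that MYC and USF factors bind too.
Pgk1 (chrX:106186850-106187099, plus strand): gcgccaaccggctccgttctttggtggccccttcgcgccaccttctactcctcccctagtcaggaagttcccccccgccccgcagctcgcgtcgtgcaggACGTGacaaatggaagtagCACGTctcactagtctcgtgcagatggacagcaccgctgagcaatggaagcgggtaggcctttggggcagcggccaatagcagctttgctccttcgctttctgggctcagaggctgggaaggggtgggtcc
Ldha (chr7:46845554-46845803, plus strand): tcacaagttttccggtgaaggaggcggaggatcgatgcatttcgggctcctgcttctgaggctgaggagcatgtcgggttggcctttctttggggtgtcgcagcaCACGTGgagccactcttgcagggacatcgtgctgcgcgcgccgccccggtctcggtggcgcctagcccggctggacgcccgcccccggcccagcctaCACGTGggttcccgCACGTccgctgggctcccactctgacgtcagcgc
Pgam1 (chr19:41911621-41911870, plus strand): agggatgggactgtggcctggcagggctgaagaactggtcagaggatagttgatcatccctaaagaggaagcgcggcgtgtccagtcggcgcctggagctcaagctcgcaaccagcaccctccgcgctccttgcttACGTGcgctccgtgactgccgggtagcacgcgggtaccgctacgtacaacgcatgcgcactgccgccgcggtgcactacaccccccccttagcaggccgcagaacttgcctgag
Hif1a (chr12:73907617-73907866, plus strand): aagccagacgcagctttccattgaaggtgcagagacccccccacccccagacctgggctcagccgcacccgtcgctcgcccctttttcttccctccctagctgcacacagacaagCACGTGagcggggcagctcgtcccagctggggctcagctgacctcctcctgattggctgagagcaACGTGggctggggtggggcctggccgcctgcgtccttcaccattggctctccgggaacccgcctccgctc
In Pgk1 the 2 matches begin 150 and 131 bases before the start, and in Pgam1 the single match begins 114 bases before it. Ldha holds 5 matches, of which 4 form overlapping pairs, and the farthest begins 145 bases from the start. RefSeq promoters were found for 30 of the 34 members (Ero1l under the symbol Ero1a). Of their 43 start sites, 20 (46.5%) had the 5 letters in this window, against 16.6% of the 32851 mouse promoters in the table. The 10 shared genes had 16 start sites, of which 7 (43.75%) had a match, near the share of all member start sites. By gene, 6 had a match at one of their starts, and Gpi1, Tpi1, Gapdh and Eno1 had none of these 5 letters. A second Ldha start, not shown, had none either. Only these 5 letters and their reverse complement were searched, so other forms of a HIF site would be missed. A match describes letters only, since binding was not measured.

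The deposited matrices have 7757 barcodes for Sham, 11690.0 for D2 and 11574 for D7. Filters on genes, UMIs (unique molecular identifiers, 1 per captured transcript), mitochondrial share and doublet score kept 7346, 11034 and 10944 of these, with medians of 4080.0, 6645 and 6764.5 UMIs. Pairs of libraries shared 21 to 29 barcodes. Cells were grouped into 31 clusters without using the members, and clusters were named from marker genes alone, so each class name means cells that are like that type. The markers fitted the names, since at least 12 of 13 fibroblast, 12 of 12 endothelial, 15 of 16 monocyte/macrophage and 10 of 12 neutrophil markers were seen in 10.0% or more of the class in each library. Class sizes in Sham, D2 and D7 were 148, 4512 and 1552 neutrophils, 1005, 4297 and 2784 monocytes/macrophages, 2048, 90 and 2938 fibroblasts and 467, 89 and 391 endothelial cells. Levels are UMIs summed over a class and library in counts per 1e6 UMIs (CPM), with exact 95.0% Poisson intervals in parentheses. These intervals and those of ratios cover counting error only, not mice or operations, and treat UMIs as independent. D2 fibroblasts and endothelial cells were few and deep, with medians of 14336 and 13112 UMIs against 6625.5 and 3435 in Sham. Endothelial cells formed 1 cluster, whereas in the other 3 main classes the cluster with most Sham cells was not the one with most D2 cells. A further shallow cluster with fibroblast markers (1751 Sham, 22 D2 and 192 D7 cells) was left without a class. So was cluster 16, led by cell cycle genes such as Top2a and Mki67 (42 Sham, 315 D2 and 234 D7 cells). Rankings of classes leave out the clusters without a class.

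Ratios to Sham differed between the upper and the lower steps of glycolysis and between classes. A member was read where the pair of libraries averaged at least 25 CPM and held at least 20 UMIs, and it was counted as higher or lower from a 1.5-fold ratio of (CPM + 1). Since the floor is a mean, a member under 25 CPM in 1 library could pass through the other. Of the enzymes and transporters counted as higher than in Sham, Slc2a1 and Slc16a3 in monocytes/macrophages and Slc16a1 in fibroblasts passed in this way. So did Pfkl in monocytes/macrophages at D2. Adm at D2 and Hk1 at D7 in fibroblasts, both counted as lower, passed through the Sham library. At D2, 10 of the 12 enzymes and transporters read in fibroblasts were higher, as were 12 of 18 in monocytes/macrophages and 9 of 12 in endothelial cells. Over all genes read the same way, 25.3% were higher in fibroblasts, 13.8% in monocytes/macrophages and 19.7% in endothelial cells. In neutrophils 3 of 18 were higher, against 33.4% of all genes. The median log2 ratio of the enzymes and transporters was 2.19 in fibroblasts, 1.24 in monocytes/macrophages, 0.92 in endothelial cells and 0.01 in neutrophils. The medians of all genes were 0.00, 0.03, 0.01 and 0.27.

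**Figure D1:**
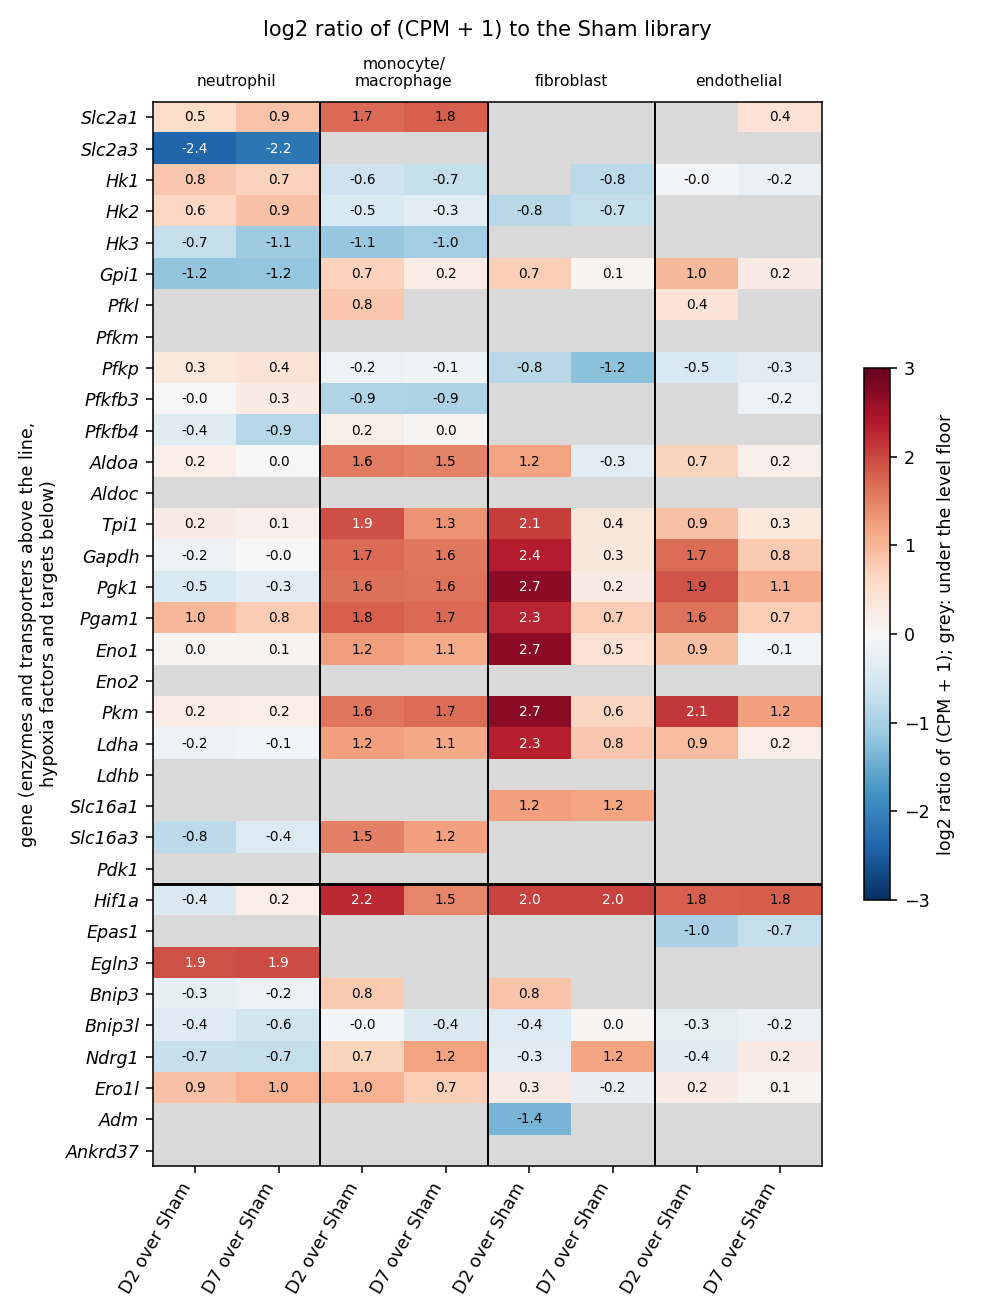
Each cell gives the log2 ratio of (CPM + 1) of a member (rows) for D2 over Sham or D7 over Sham in 4 classes (columns), 1 library per group, with grey for members under the level floor. Red fills the rows of Gpi1, Aldoa, Tpi1, Gapdh, Pgk1, Pgam1, Eno1, Pkm and Ldha for D2 over Sham in monocytes/macrophages, fibroblasts and endothelial cells, with values up to 2.71 for Pkm in fibroblasts, whereas in neutrophils only Pgam1 of these is counted as higher.

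In fibroblasts, the matrix-producing cells of the outer artery wall, the genes from aldolase to lactate dehydrogenase were high at D2 and most lay near the Sham level at D7. Gapdh, glyceraldehyde-3-phosphate dehydrogenase, had 286 (278 to 295) CPM in Sham, 1467 (1413 to 1523) in D2 and 363 (357 to 369) in D7. It was 5.13-fold (4.88 to 5.38) higher at D2. Pkm, pyruvate kinase of non-liver tissues, had 80.8 (76.2 to 85.6) CPM in Sham, 536 (503 to 569.8) in D2 and 127 (124 to 131) in D7, a 6.63-fold (6.09 to 7.22) difference at D2. Gapdh lies on mm10 chromosome 6 (125161715 to 125166467) and Pkm on chromosome 9 (59656368 to 59679375). D2 was the high library for both, D7 was 1.27-fold of Sham for Gapdh and 1.57-fold for Pkm, and no intervals overlapped. Pgk1, phosphoglycerate kinase, was 6.57-fold (5.81 to 7.42) higher at D2 with 40.3 CPM in Sham, 264 in D2 and 47.9 in D7. Eno1, alpha-enolase of the penultimate step, was 6.57-fold (5.83 to 7.41) higher with 41.6 CPM in Sham, 273 in D2 and 57.7 in D7. Ldha, which makes lactate, had 123 CPM in Sham, 621 in D2 and 216 in D7, and Pgam1, phosphoglycerate mutase, had 78.6 CPM in Sham, 390.2 in D2 and 132 in D7. Pgk1 and Eno1 were the genes with the largest D2 ratios after Pkm, whereas Ldha and Pgam1 stayed 1.76-fold and 1.68-fold above Sham at D7. Tpi1, triose-phosphate isomerase, had 71.1 CPM in Sham, 303 in D2 and 91.6 in D7, and Aldoa, aldolase A, 179.6 CPM in Sham, 415 in D2 and 144 in D7. Gpi1, which isomerises glucose-6-phosphate, had a smaller difference with 56.1 CPM in Sham, 94.0 in D2 and 58.7 in D7. At D2 fibroblasts had the highest level of all named classes with at least 50 cells for Aldoa, Tpi1, Gapdh, Pgk1, Pgam1, Eno1, Pkm and Ldha, and no interval of the next class overlapped. In Sham they were highest only for Hk2. The unnamed cluster 16 (315 D2 cells) had 287 (265 to 311) CPM of Eno1 and 252 (231 to 275) of Pgk1 at D2, close to fibroblasts. For the other genes listed it lay below fibroblasts, as for Gapdh at 1284 CPM.

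At D7, 4 of 13 enzymes and transporters were higher than in Sham in fibroblasts (Pgam1, Pkm, Ldha and Slc16a1), beside 12.3% of all genes. For D7 over D2, 9 of 13 were lower, beside 17.6% of all genes. Pgk1 was 5.52-fold lower (4.99 to 6.10) at D7 than at D2, and Gapdh 4.04-fold lower (3.88 to 4.21). The hexokinases and Pfkp at the entry of the pathway ran the other way. Hk2, the inducible hexokinase that phosphorylates glucose, had 235 (227 to 243) CPM in Sham, 131 (115 to 148) in D2 and 143 (139 to 146) in D7. Pfkp, the platelet-type phosphofructokinase, had 77.9 (73.4 to 82.6) CPM in Sham, 43.0 (34.1 to 53.4) in D2 and 32.8 (31.0 to 34.7) in D7. Both were highest in Sham, and neither D2 nor D7 overlapped it. Hk1, the housekeeping hexokinase, had 32.7 CPM in Sham, 15.9 in D2 and 18.4 in D7, and was read for D7 only. With Adm they made 3 members lower at D2, beside 25.1% of all genes, and with Hk1 in place of Adm 3 at D7, beside 17.9%. Slc16a1 (MCT1), a lactate and pyruvate transporter, had 15.4 CPM in Sham, 37.7 in D2 and 36.2 in D7. Slc16a3 (MCT4), a lactate exporter, was too low to be read in the class, at 1.54 CPM in Sham, 32.9 in D2 and 10.1 in D7.

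The D2 fibroblast values rest on 90 cells, of which 51 had no UMI of 6 cell cycle genes (Mki67, Top2a, Birc5, Ccna2, Ccnb2, Pclaf), against 2008 of 2048 in Sham and 2729 of 2938 in D7. In cells without such a UMI, which were also shallower at D2 (median 6902 UMIs), Gapdh was 2.92-fold, Pgk1 3.69-fold, Pkm 3.94-fold and Ldha 4.27-fold above Sham. In those cells 8 enzymes and transporters were higher at D2, and Aldoa and Gpi1 were under the limit at 1.48-fold and 1.25-fold. The share of all genes higher in those cells was not counted. Depth also differed between the libraries. After every cell was thinned to 1000 UMIs, Gapdh was seen in 25.2% of Sham, 59.6% of D2 and 30.5% of D7 fibroblasts, and Pkm in 8.02%, 34.8% and 10.9%. Thinning left out 90, 1 and 50 cells, and the unthinned shares for Gapdh were 72.4%, 88.9% and 86.4%. In D2 fibroblasts, 13 of 16 monocyte/macrophage markers were seen in at least 10% of cells, at a summed level of 912 CPM against 301 in Sham and 754 in D7. Their part in the result was not tested. S100a8, an abundant neutrophil transcript, was at 5.52, 94.0 and 72.0 CPM in these fibroblasts. With the free RNA share estimated from neutrophil genes subtracted, the Gapdh ratio of D2 to Sham was 5.19-fold, and the part of RNA from other cells was not tested further.

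**Figure D2:**
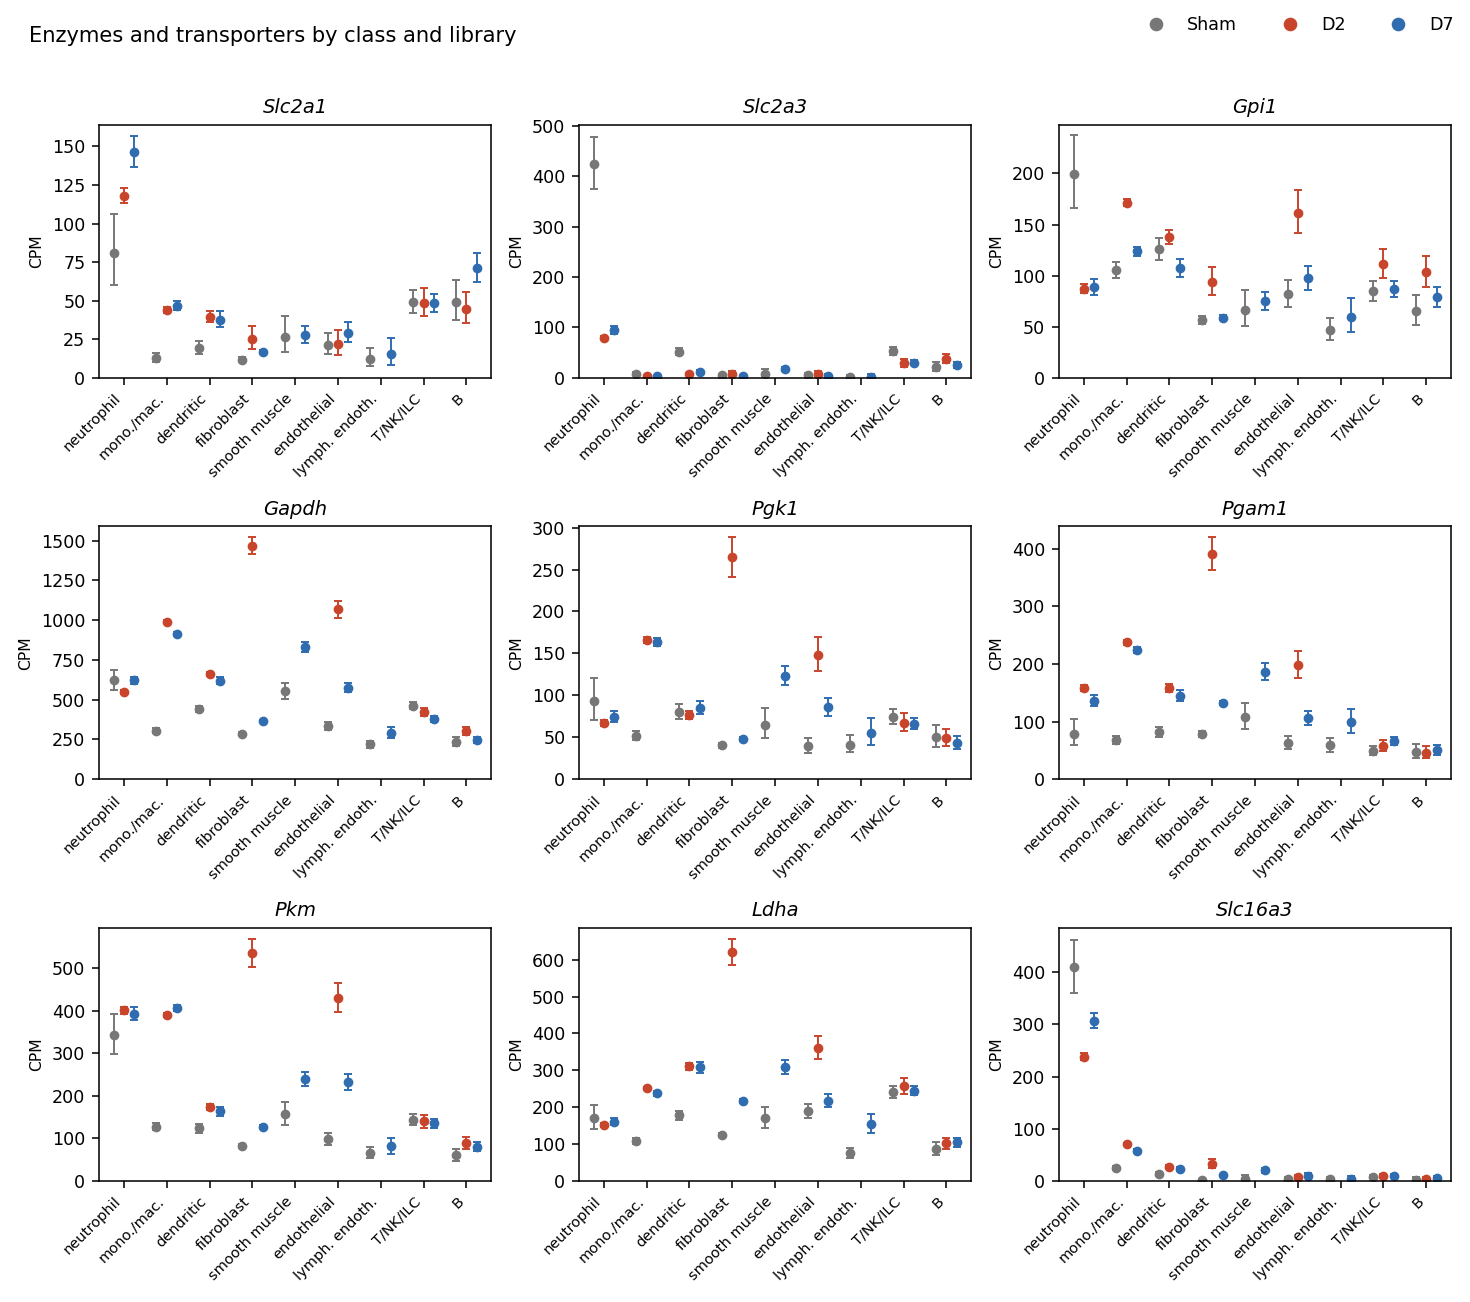
Points give CPM of UMIs summed over a class (x axis) in Sham (grey), D2 (red) and D7 (blue), 1 library each, with exact 95.0% Poisson intervals, for classes with at least 50 cells. The red fibroblast points of Gapdh, Pgk1, Pgam1, Pkm and Ldha stand above all other points, whereas Slc2a3 and Slc16a3 are highest in neutrophils.

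In monocytes/macrophages, the phagocytes that clear and remodel injured tissue, the same lower steps were high at D2 and stayed high at D7. Gapdh had 306 (293 to 319) CPM in Sham, 990.5 (982 to 999) in D2 and 912 (901 to 924) in D7. Pkm had 127 (118 to 135) CPM in Sham, 389.9 (384 to 395) in D2 and 406 (399 to 414) in D7. Pgk1 had 52.1 CPM in Sham, 165 in D2 and 163 in D7. For these 3 genes D2 and D7 lay close together, clear of Sham. Pgam1 was 3.50-fold (3.19 to 3.85) higher at D2 and 3.31-fold (3.01 to 3.65) at D7, from 67.8 CPM in Sham. Tpi1 was 3.90-fold (3.50 to 4.35) higher at D2 and 2.56-fold (2.29 to 2.87) at D7. Tpi1 was the gene of this group whose D7 level was furthest under its D2 level. Aldoa had 113 CPM in Sham, 334 in D2 and 319 in D7. Eno1 had 92.7 CPM in Sham, 221 in D2 and 201 in D7, and Ldha had 107 CPM in Sham, 251 in D2 and 237 in D7. The carriers for glucose and lactate were higher as well. Slc2a1 (GLUT1), the widespread glucose carrier, had 12.9 (10.3 to 15.9) CPM in Sham, 43.8 (42.0 to 45.7) in D2 and 46.9 (44.3 to 49.7) in D7. Slc16a3 had 24.2 (20.6 to 28.2) CPM in Sham, 70.4 (68.1 to 72.8) in D2 and 57.8 (54.9 to 60.8) in D7. Neither carrier's Sham interval overlapped those of the injured libraries. At D7, 10 of 17 enzymes and transporters were higher than in Sham, beside 15.6% of all genes. At D7 this class had the highest level of Aldoa, Gapdh, Pgk1, Pgam1 and Eno1 among the named classes. The unnamed cluster 16 (234 D7 cells) was higher for all of them, with 439, 1177, 239, 313 and 222 CPM in that order.

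Some genes of the entry steps were lower in monocytes/macrophages. Hk3, a hexokinase of myeloid cells, had 62.3 (56.5 to 68.6) CPM in Sham, 27.6 (26.2 to 29.1) in D2 and 29.8 (27.7 to 32.0) in D7, and was 2.26-fold lower (2.02 to 2.52) at D2. Pfkfb3, which makes the activator of phosphofructokinase, had 108 CPM in Sham, 57.4 in D2 and 56.4 in D7. Hk1 had 48.5 CPM in Sham, 31.3 in D2 and 29.0 in D7. These 3 were the members counted as lower at both times, beside 14.1% of all genes at D2 and 19.4% at D7. Hk2 had 107 CPM in Sham, 77.9 in D2 and 85.8 in D7, and Pfkp had 81.0 CPM in Sham, 71.3 in D2 and 74.3 in D7, both within the 1.5-fold limit.

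The clusters that made up this class differed between the libraries. Of 1005 Sham cells, 721 were in cluster 13, led by the resident markers Cd209f, Folr2 and Cd163, which had 21 cells at D2. In that cluster Gapdh was 242 CPM in Sham and 327 in D7, and Pkm 94.5 and 130.0. Cluster 11, led by Arg1, Hmox1 and Spp1, held no Sham cell, and had the highest values at D7, with 1485 CPM of Gapdh, 712 of Pkm and 299 of Pgk1. Its D2 values were 1201, 458 and 207. In cluster 6, with antigen presentation genes, Gapdh was 436 CPM in Sham, 969 in D2 and 806 in D7. In cluster 9, led by Chil3, it was 511, 1248 and 829. So Clusters 6 and 9 were the only ones of the class with at least 50 cells in all libraries, and Gapdh was higher in the injured libraries within both. Over those 2 clusters together Gapdh was 2.27-fold above Sham at D2 and 1.68-fold at D7, against 3.24 and 2.98 in the whole class. 10 enzymes and transporters were higher there at D2 and 8 at D7, but the share of all genes higher in these clusters was not counted. In clusters 6 and 9 Hk1 was above Sham, with a ratio of 1.40 at D2 and 1.15 at D7. Pfkfb3 had a ratio of 0.915 at D2 and 0.915 at D7. Hk3 had 0.526 and 0.702, so it was the 1 gene of the 3 still counted as lower, at D2. Slc16a3 at D7 had a ratio of 0.904 there, below Sham.

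**Figure D3:**
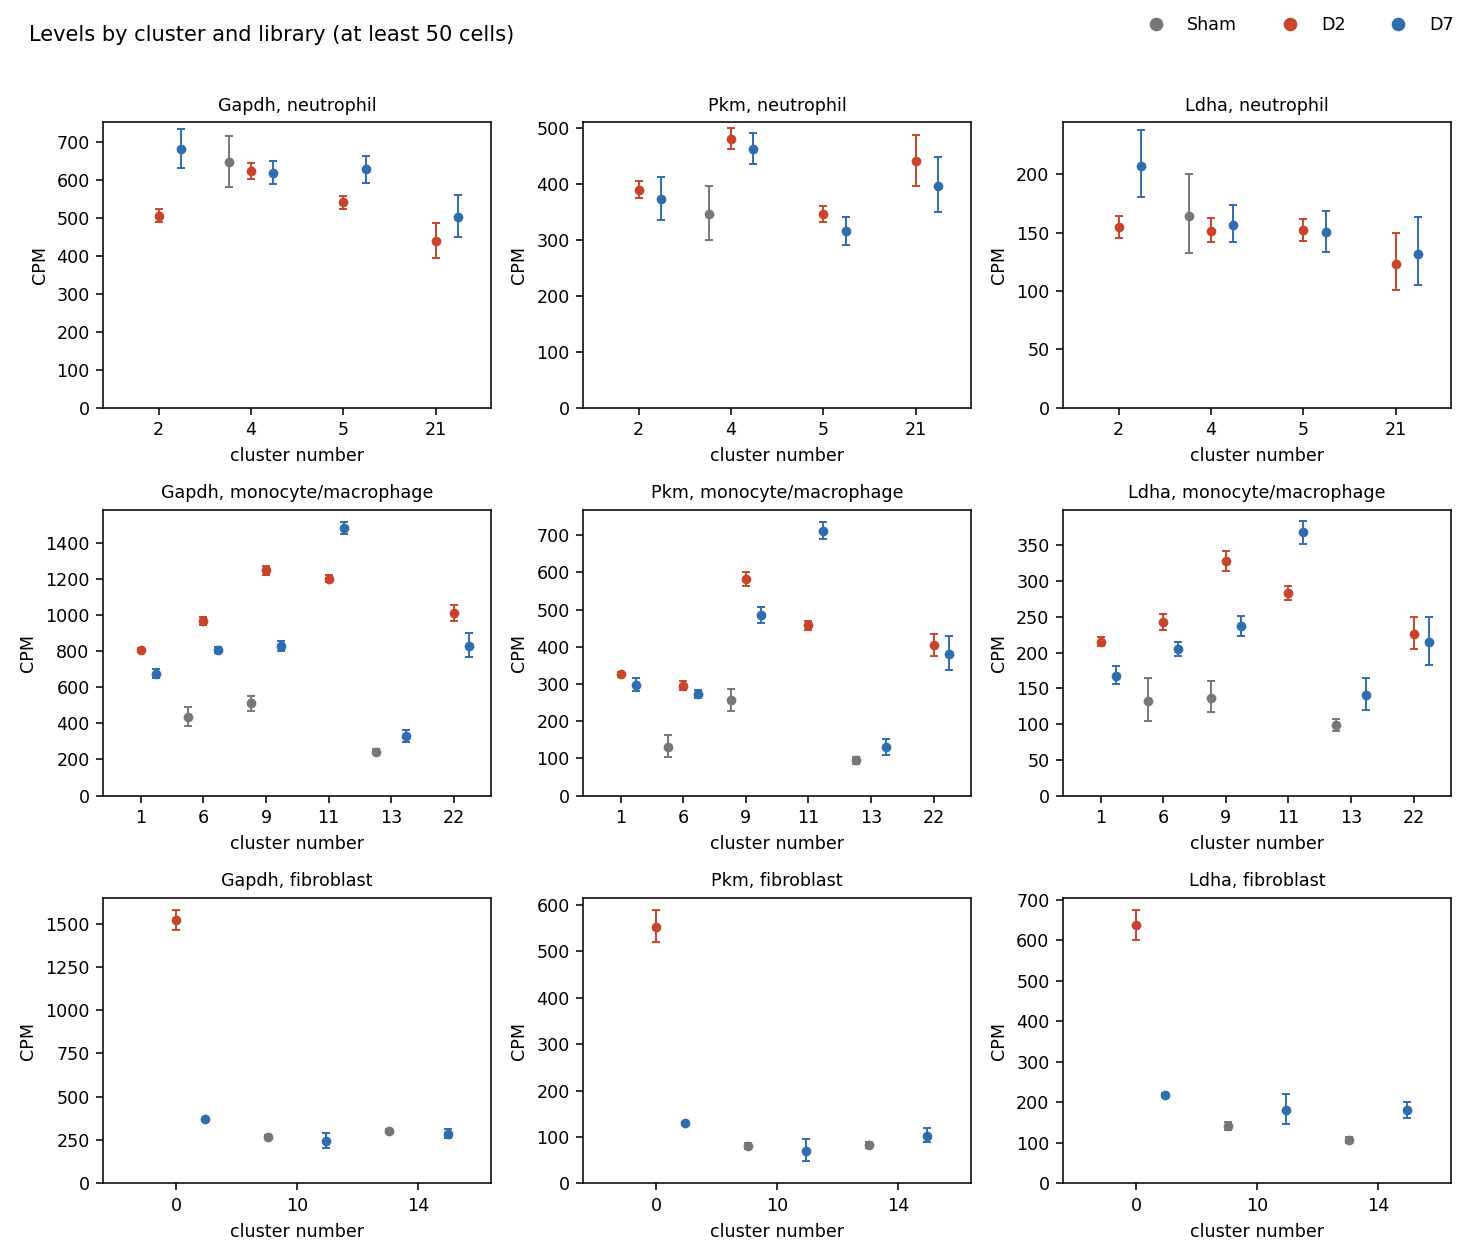
Points give CPM of Gapdh, Pkm and Ldha (columns) by cluster number (x axis) for neutrophils, monocytes/macrophages and fibroblasts (rows), in Sham (grey), D2 (red) and D7 (blue), with exact 95.0% Poisson intervals and only where a cluster has at least 50 cells in the library. Macrophage cluster 11 at D7 and fibroblast cluster 0 at D2 are the high points, whereas macrophage cluster 13 is low in Sham and D7.

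Fibroblast clusters also differed between the libraries. Cluster 0, led by Cthrc1 and Postn, held 79 of the 90 D2 cells and 2712 of the 2938 D7 cells, and Gapdh was 1522 CPM there at D2 and 369 at D7. Ldha was 638 and 218 CPM. In cluster 14, led by Pi16, Gapdh was 304 CPM in Sham and 286 in D7. Sham cells of cluster 14 had a median of 10158.5 UMIs and those of cluster 10 a median of 4528, with 43.0 and 37.2 CPM of Pgk1. For Gapdh the intervals of Sham and D7 overlapped within cluster 10 and within cluster 14. Hk2 was lower at D7 in both, with 218 CPM in Sham and 151 in D7 in cluster 10, and 254 and 115 in cluster 14. Pfkp was 60.1 CPM in Sham and 63.0 in D7 in cluster 10, and 94.4 and 57.8 in cluster 14. Hk1 was 27.2 CPM in Sham and 26.7 in D7 in cluster 10, and 38.2 and 21.1 in cluster 14.

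In endothelial cells, which line blood vessels, the lower steps were high at D2 and partly so at D7. The cluster was led by genes such as Flt1, Aqp1, Plvap and Emcn, and which vessels its cells came from was not tested. Gapdh had 333 (307 to 360.0) CPM in Sham, 1068 (1015 to 1122) in D2 and 576 (548 to 605) in D7. Pkm had 97.6 (84.0 to 113) CPM in Sham, 430.3 (397 to 465) in D2 and 231 (214 to 250.1) in D7. In both the 3 libraries were apart, with D7 between Sham and D2. Pgk1 was 3.76-fold (2.88 to 4.97) higher at D2 and 2.17-fold (1.66 to 2.86) at D7, from 39.5 CPM. Pgam1 had 62.9 CPM in Sham, 198 in D2 and 106 in D7, and Ldha 188 CPM in Sham, 361 in D2 and 216 in D7. Eno1 had 82.1 CPM in Sham, 155 in D2 and 77.6 in D7, so its D7 level overlapped Sham. At D7, 4 of 13 enzymes and transporters were higher than in Sham (Gapdh, Pgk1, Pgam1 and Pkm), beside 13.8% of all genes. For D7 over D2, 7 of 13 were lower, beside 6.55% of all genes. Of the enzymes and transporters past the floor none was lower than in Sham at D2 or D7, beside 18.9% and 11.8% of all genes. Epas1 was the 1 lower member past the floor at both times. Slc16a1, under the floor, had 32.0 (24.4 to 41.2) CPM in Sham, 7.56 (3.77 to 13.5) in D2 and 7.25 (4.43 to 11.2) in D7, and Sham was the high library without overlap. Adm, also under the floor, had 16.5 (11.2 to 23.5) CPM in Sham, 1.37 (0.166 to 4.97) in D2 and 7.62 (4.72 to 11.6) in D7, and only the D2 interval lay apart from Sham. Hk2 was nearly absent from this class, with 3.73 CPM in Sham, 2.75 in D2 and 4.72 in D7. S100a8 was at 408 CPM in the 89 D2 endothelial cells against 9.60 in Sham, and all 12 neutrophil markers together at 1089.5 against 46.4 CPM. With free RNA subtracted Gapdh was 3.28-fold and Pkm 4.49-fold above Sham at D2. The part of RNA from other cells in these values was not tested further.

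Neutrophils, short-lived phagocytes that enter injured tissue from blood, had lower-pathway levels that mostly differed little between the libraries. Gapdh had 623 (563 to 688) CPM in Sham, 548 (538 to 559) in D2 and 621 (601 to 641) in D7. Pkm had 343 (299 to 392) CPM in Sham, 401 (392 to 409.7) in D2 and 393 (378 to 409) in D7. Ldha had 171 CPM in Sham, 152 in D2 and 161 in D7. No library stood apart by 1.5-fold for any of them. In Sham neutrophils were the highest class for Gapdh and Pkm, but for Gapdh the interval of smooth muscle cells, at 552 CPM, overlapped theirs. Tpi1 was low in this class, with 38.0 CPM in Sham, 45.1 in D2 and 42.0 in D7. Eno1 had 133 CPM in Sham, 137 in D2 and 140.2 in D7, and Aldoa had 237 CPM in Sham, 274 in D2 and 238 in D7. For Gapdh, Ldha, Eno1 and Aldoa the ratio of D2 to Sham stayed between 0.880 and 1.16. Pgam1 was higher, 2.00-fold (1.51 to 2.70) at D2, with 79.1 CPM in Sham, 158 in D2 and 136 in D7. The carriers differed more than the enzymes. Slc2a3 (GLUT3), a high-affinity glucose carrier on mm10 chromosome 6 (122727809 to 122801640), had 424 (375 to 478) CPM in Sham, 80.0 (76.2 to 84.0) in D2 and 94.3 (86.7 to 102) in D7, and was 5.30-fold lower (4.64 to 6.03) at D2. Slc2a1 had 80.7 (60.1 to 106) CPM in Sham, 118 (113 to 123) in D2 and 147 (137 to 157) in D7. The order of the libraries was opposite for these 2 carriers of glucose, with Sham highest for Slc2a3 and lowest for Slc2a1. Slc16a3 had 409.8 (361 to 463) CPM in Sham, 238 (231 to 245) in D2 and 307 (293 to 321) in D7. Gpi1 had 199 (166 to 237) CPM in Sham, 87.2 (83.2 to 91.4) in D2 and 88.7 (81.3 to 96.5) in D7. Sham was the high library for both, without overlap. Hk3 had 109 CPM in Sham, 66.1 in D2 and 51.5 in D7. Pfkfb4, a relative of Pfkfb3, had 93.4 CPM in Sham, 72.6 in D2 and 50.8 in D7. Sham was highest for these too, whereas the other hexokinases were lowest in Sham. Hk1 had 33.2 CPM in Sham, 59.2 in D2 and 53.8 in D7, and Hk2 had 30.1 CPM in Sham, 46.5 in D2 and 56.2 in D7.

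In neutrophils 4 of 18 enzymes and transporters were higher at D7 (Slc2a1, Hk1, Hk2 and Pgam1), beside 31.6% of all genes. With Ndrg1, 5 members were lower at D2 and 5 at D7, beside 15.3% and 16.2% of all genes. The median gene was itself 0.27 (log2) above Sham at D2 and 0.19 at D7, and -0.12 in monocytes/macrophages at D7, where relative scaling left the calls as they were. Relative to the median gene, 3 neutrophil members were higher (Pgam1, Egln3, Ero1l) and 9 lower at D2, against 5 and 5 in CPM. At D7 it was 4 and 7. The shares of all genes higher or lower relative to the median gene were not counted, and those above are for CPM. Of the 148 Sham neutrophils, 132 were in cluster 4, led by Retnlg, the only neutrophil cluster with at least 50 cells in all libraries. Within it Slc2a3 was 445 CPM in Sham, 101 in D2 and 167 in D7, and Gpi1 207, 91.9 and 98.6. Slc16a3 was 426, 388 and 483 in this cluster, a ratio of 0.911 at D2, and 164 at D2 in cluster 5, led by Il1a and Tnf. The lower Slc16a3 of the whole class at D2 was not seen within cluster 4.

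The remaining classes differed from each other in the lower steps. In dendritic cells, which present antigen, Gapdh had 439.9 CPM in Sham, 662 in D2 and 619 in D7, and Ldha had 177 CPM in Sham, 310.4 in D2 and 307 in D7. Their Slc2a3 had 51.5 CPM in Sham, 8.49 in D2 and 11.9 in D7. Sham was the low library for Gapdh and Ldha and the high one for Slc2a3, as it was for Slc2a3 in neutrophils. Of the 380 Sham dendritic cells, 231 were in cluster 23, which held 3 cells at D2 and 11 at D7, and the Sham class carried 6522 CPM of monocyte/macrophage markers beside 1868 of dendritic ones. In cluster 7, with at least 50 cells in all libraries, Slc2a3 was 30.1 CPM in Sham, 7.59 in D2 and 8.05 in D7. Smooth muscle cells, with only 17 cells at D2, had 552 CPM of Gapdh in Sham and 829 in D7. Their Ldha was 170.0 CPM in Sham and 308 in D7. The smooth muscle class carried 8608 CPM of fibroblast markers in Sham beside 28201 of its own, and 10800 beside 12340 in D7. Of its 196 Sham cells, 45 were in the shallow cluster 28, with a median of 1264 UMIs. Lymphatic endothelial cells had 219 CPM of Gapdh in Sham and 294 in D7. In lymphocytes Gapdh stayed within 1.5-fold across the libraries. In T/NK/ILC cells it had 462 CPM in Sham, 422 in D2 and 379 in D7, and in B cells 234 CPM in Sham, 301 in D2 and 246 in D7. Eno1 in T/NK/ILC cells had 162 CPM in Sham, 107 in D2 and 98.0 in D7, highest in Sham. Slc2a1 in T/NK/ILC cells had 49.2 CPM in Sham, 48.6 in D2 and 48.4 in D7, with overlapping intervals.

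Some members were highest in the same class in every library. Hk2 was highest in fibroblasts in every library among the named classes, whereas the unnamed cluster 24 had 570 CPM in Sham and 412 in D7. Pfkp had its highest D2 and D7 levels in dendritic cells, at 176 and 181 CPM. Hk3, Pfkfb4, Slc2a3 and Slc16a3 were highest in neutrophils in every library. In Sham, 50 Schwann cells had 251 CPM of Ldhb, the lactate dehydrogenase subunit of oxidative tissues, against 30.3 in smooth muscle, the next class. In Sham, 74 mast cells/basophils had 442 CPM of Ldha and 156 of Ero1l, the highest of the classes there. Pfkm, Aldoc, Eno2, Ldhb, Pdk1 and Ankrd37 stayed under the level floor in all 4 main classes and both comparisons with Sham. Pdk1, a kinase that inhibits pyruvate dehydrogenase, was highest in lymphocytes, at 28.4 CPM in Sham T/NK/ILC cells and 30.4 in D7 B cells. Pfkl, the liver-type phosphofructokinase, had 19.0 CPM in Sham, 34.2 in D2 and 18.0 in D7 in monocytes/macrophages. Aldoc was at most 15.7 CPM, in Sham dendritic cells. Pfkm, the muscle-type phosphofructokinase, was at most 19.5 CPM, in Sham mast cells/basophils, and Eno2, the neuronal enolase, at most 25.8, in Sham Schwann cells. Pfkfb3 was highest in neutrophils at D7, with 103 CPM in Sham, 102 in D2 and 123 in D7.

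Hif1a itself was higher after injury in every main class but neutrophils. In monocytes/macrophages it had 108 (100.3 to 116) CPM in Sham, 509 (503 to 516) in D2 and 300.4 (294 to 307) in D7, 4.72-fold (4.38 to 5.08) above Sham at D2. Hif1a lies on mm10 chromosome 12 (73901375 to 73947530). In fibroblasts it had 91.3 (86.4 to 96.4) CPM in Sham, 377 (350.2 to 406) in D2 and 376 (369 to 382) in D7. In endothelial cells it had 89.1 (76.1 to 104) CPM in Sham, 313 (285 to 344) in D2 and 318 (297 to 339.5) in D7. D2 and D7 overlapped in both of the latter, whereas Gapdh, Pkm and Pgk1 were lower at D7 than at D2. For D7 over D2 Hif1a was 0.995-fold (0.923 to 1.07) in fibroblasts, while Pgk1 was 0.181-fold (0.164 to 0.200). In neutrophils Hif1a had 250.0 (213 to 292) CPM in Sham, 184 (178 to 190.1) in D2 and 289 (275 to 303) in D7, with D2 lowest. Within macrophage clusters 6 and 9, the Hif1a ratio was 4.91-fold at D2 and 2.80-fold at D7. B cells had 73.6 CPM in Sham, 162 in D2 and 142 in D7, and T/NK/ILC cells 112 CPM in Sham, 178 in D2 and 202 in D7. The transcript is not a measure of HIF-1 activity, since the protein is controlled by its breakdown.

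Epas1 was highest in endothelial cells in every library. Endothelial cells had 554 (520.5 to 588) CPM in Sham, 282 (255 to 310.5) in D2 and 339.5 (318 to 362) in D7, 1.96-fold lower (1.75 to 2.21) at D2 and 1.63-fold lower (1.49 to 1.78) at D7. Smooth muscle cells had 254 CPM in Sham and 192 in D7, and lymphatic endothelial cells 142 and 142. Monocytes/macrophages had only 7.27 CPM in Sham and 2.26 in D2. In endothelial cells Hif1a was higher and Epas1 lower in both injured libraries.

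**Figure D4:**
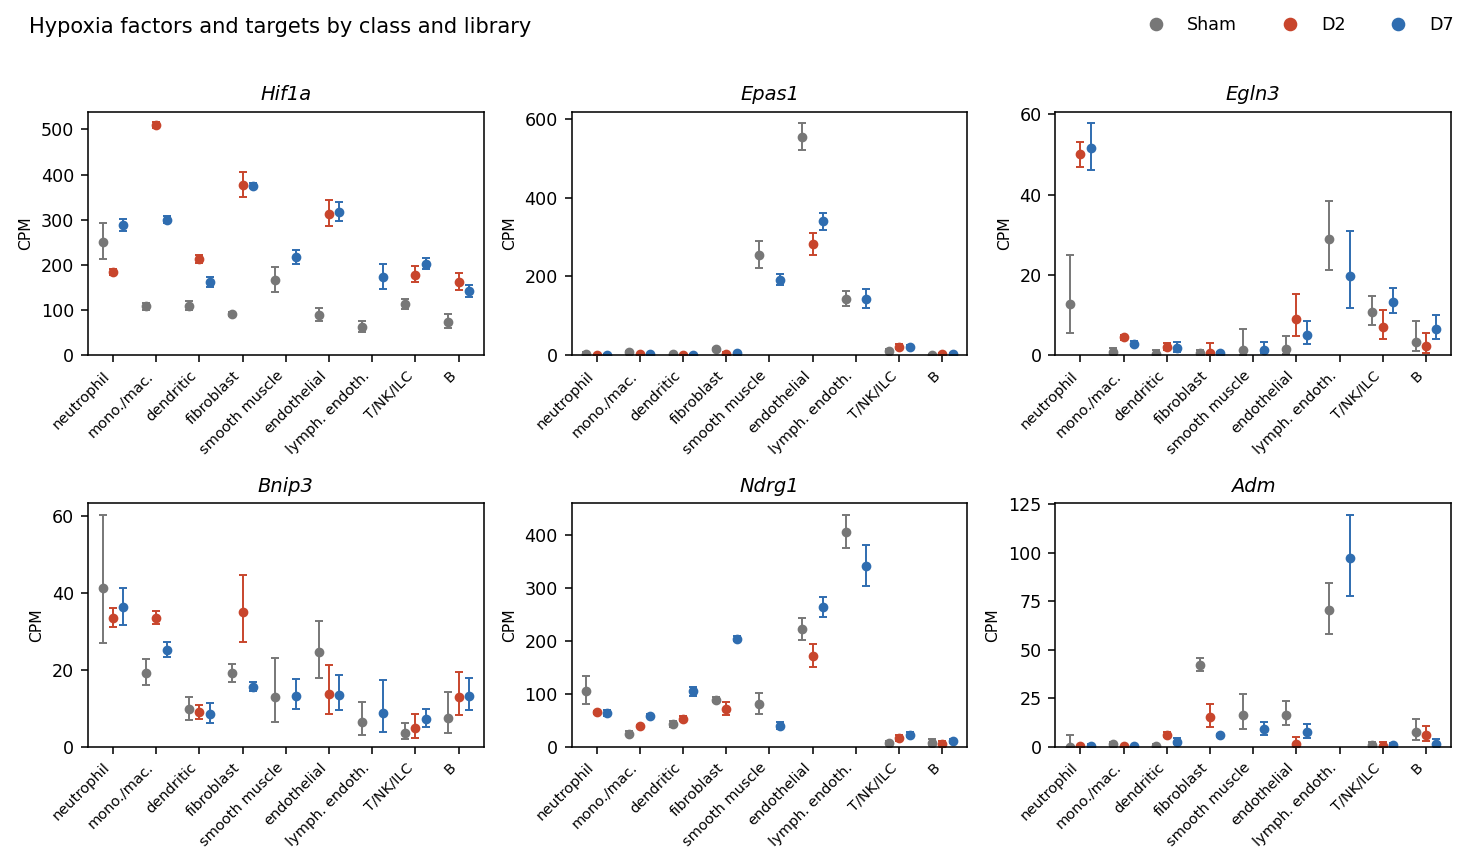
Points give CPM of 6 hypoxia factors and targets by class (x axis) in Sham (grey), D2 (red) and D7 (blue), 1 library each, with exact 95.0% Poisson intervals, for classes with at least 50 cells. Hif1a is above Sham after injury in monocytes/macrophages, fibroblasts and endothelial cells, Epas1 is highest in Sham endothelial cells, and Egln3 is highest in D2 and D7 neutrophils.

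The hypoxia targets differed in which class and library was high. Egln3, the hydroxylase that HIF itself induces, had 12.7 (5.46 to 24.9) CPM in Sham, 50 (47.0 to 53.2) in D2 and 51.7 (46.1 to 57.8) in D7 in neutrophils, 3.95-fold (2.00 to 9.18) higher at D2, from 8 UMIs in Sham. In monocytes/macrophages Egln3 had 0.742 CPM in Sham, 4.43 in D2 and 2.86 in D7, and in fibroblasts it was under 1 CPM in all libraries. Ero1l, an oxidase of disulfide formation, had 39.6 CPM in Sham, 73.1 in D2 and 82.0 in D7 in neutrophils. In monocytes/macrophages it had 22.4 CPM in Sham, 47.4 in D2 and 38.1 in D7. It was higher after injury in both, and within macrophage clusters 6 and 9 its D2 over Sham ratio was 1.68, with 1.25 at D7. In fibroblasts and endothelial cells its intervals overlapped Sham at D2, at 35.0 and 42.6 CPM. Bnip3, a mitophagy receptor, had 19.1 CPM in Sham, 35.0 in D2 and 15.6 in D7 in fibroblasts. In monocytes/macrophages it had 19.1 CPM in Sham, 33.5 in D2 and 25.1 in D7. D2 was the high library in both classes. Its relative Bnip3l stayed within 1.5-fold of Sham in all 4 classes, for example 129.9 CPM in Sham, 97.2 in D2 and 134 in D7 in fibroblasts. Ndrg1, a stress-responsive gene, had 88.9 (84.1 to 93.9) CPM in Sham, 70.6 (59.1 to 83.7) in D2 and 204 (200.0 to 209) in D7 in fibroblasts, where only D7 was high, 2.30-fold (2.17 to 2.44) above Sham. Within fibroblast clusters 10 and 14 its Sham and D7 intervals overlapped, at 69.8 and 84.0 CPM and at 107 and 99.4 CPM. Cluster 0, with 24 Sham cells, had 212 CPM at D7. In monocytes/macrophages Ndrg1 had 24.8 CPM in Sham, 39.9 in D2 and 58.8 in D7, but within clusters 6 and 9 its D2 over Sham ratio was 0.969, with 1.21 at D7. In neutrophils it had 104 CPM in Sham, 64.7 in D2 and 63.3 in D7, with Sham high. The Ndrg1 levels of other classes reached 1102 CPM in Sham Schwann cells and 406 in Sham lymphatic endothelial cells. Adm, the vasodilator peptide adrenomedullin, had 42.1 (38.8 to 45.6) CPM in Sham, 15.4 (10.3 to 22.1) in D2 and 5.79 (5.05 to 6.61) in D7 in fibroblasts, highest in Sham. Lymphatic endothelial cells had 70.3 CPM of Adm in Sham and 97.1 in D7. Ankrd37 was at most 30.3 CPM in the main classes, in D2 neutrophils.

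By count, 4 of 5 hypoxia factors and targets read were higher at D2 in monocytes/macrophages (Hif1a, Bnip3, Ndrg1 and Ero1l), 2 of 6 in fibroblasts (Hif1a and Bnip3), 2 of 6 in neutrophils (Egln3 and Ero1l) and 1 of 5 in endothelial cells (Hif1a). At D7 the counts were 3 of 4, 2 of 4, 2 of 6 and 1 of 5 in the same order, beside 15.6%, 12.3%, 31.6% and 13.8% of all genes. The neutrophil and endothelial D7 counts lay near those shares. Beside the D2 counts, 13.8% of all genes were higher in monocytes/macrophages, 25.3% in fibroblasts, 33.4% in neutrophils and 19.7% in endothelial cells. The neutrophil and endothelial D2 counts lay at the share of all genes, and the fibroblast count near it. Bnip3, Ndrg1 and Ero1l in monocytes/macrophages, Bnip3 in fibroblasts and Egln3 in neutrophils were under 25 CPM in Sham. They passed the floor at D2 only through the D2 library, which favours a count as higher. For the D7 counts the same holds through the D7 library for Ndrg1 and Ero1l in monocytes/macrophages and Egln3 in neutrophils. In the monocyte/macrophage clusters 6 and 9 the counts were 2 at D2 and 1 at D7, with no share of all genes counted there. In fibroblasts the median log2 ratio at D2 was -0.04, against 2.19 for the enzymes and transporters.

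Genes of neighbouring pathways were read in the same way. At D2 the shares of all genes higher and lower were 25.3% and 25.1% in fibroblasts and 13.8% and 14.1% in monocytes/macrophages. They were 19.7% and 18.9% in endothelial cells and 33.4% and 15.3% in neutrophils. Of 34 other hypoxia pathway genes, fibroblasts at D2 had 9 higher and 5 lower of 16 read, and monocytes/macrophages 7 higher and 2 lower of 15. Mif, a cytokine, went from 68.3 to 723 CPM in D2 fibroblasts and from 48.4 to 252 CPM in D2 monocytes/macrophages. Vegfa, the endothelial growth factor, went from 5.64 to 91.5 CPM in monocytes/macrophages and from 135 to 31.9 CPM in fibroblasts, in opposite directions. Hilpda, a lipid droplet protein, went from 6.33 to 71.3 CPM in neutrophils at D2 and from 18.2 to 158 CPM in monocytes/macrophages at D7. Plod2, a collagen cross-linking enzyme, went from 53.7 to 337 CPM in fibroblasts at D2 and stood at 438 at D7. In endothelial cells 3 higher and 5 lower of 16 were counted at D2, with Egln1, the main oxygen sensor, going from 114 to 60.5 CPM. Neutrophils had 6 higher and 2 lower of 12. The endothelial share of higher genes was near that of all genes.

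The routes that branch from or follow glycolysis differed by class. Beside the D2 counts that follow, the shares of all genes higher were 33.4% in neutrophils, 13.8% in monocytes/macrophages, 25.3% in fibroblasts and 19.7% in endothelial cells, and 15.3% were lower in neutrophils. At D7 the shares higher were 15.6% in monocytes/macrophages and 12.3% in fibroblasts. Of 7 pentose phosphate genes, neutrophils at D2 had 0 higher and 4 lower of 5 read. Taldo1, transaldolase, went from 1499.9 to 243 CPM and G6pdx, the first enzyme of the route, from 52.2 to 16.6 CPM. Monocytes/macrophages had 2 higher and 0 lower of 5 at D2 and 4 higher and 0 lower of 5 at D7, fibroblasts 2 higher and 0 lower of 6 at D2 and endothelial cells 3 higher and 0 lower of 4. Of 18 TCA cycle genes, fibroblasts at D2 had 10 higher and 0 lower of 18 read, led by Mdh2 (from 75.9 to 285 CPM), and 1 higher and 1 lower of 18 at D7. Endothelial cells had 9 higher and 0 lower of 18 at D2, monocytes/macrophages 2 higher and 1 lower of 17 and neutrophils 4 higher and 1 lower of 8. The monocyte/macrophage share of higher TCA cycle genes was near that of all genes. Of 44 nuclear respiratory chain genes, fibroblasts at D2 had 19 higher and 0 lower of 44 read, with Cox5a going from 110.1 to 371 CPM, and 1 higher and 0 lower of 44 at D7. Neutrophils had 20 higher and 0 lower of 43 at D2, monocytes/macrophages 9 higher and 0 lower of 44 and endothelial cells 14 higher and 0 lower of 44. In fibroblasts the median respiratory log2 ratio at D2 was 0.50, beside 2.19 for the enzymes and transporters. Of 28 other glycolysis and pyruvate genes few were read, for example 0 higher and 0 lower of 5 in D2 fibroblasts. Mpc1, a subunit of the mitochondrial pyruvate carrier, went from 364 to 106 CPM in D2 neutrophils.

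Genes that react to tissue dissociation also differed between the libraries. In fibroblasts at D2, 14 of 18 read were lower, in endothelial cells 12 of 19, in monocytes/macrophages 7 of 19 and in neutrophils 2 of 17. The shares of all genes lower were 25.1%, 18.9%, 14.1% and 15.3% in the same order, and the neutrophil count lay near its share. Their part in the members' levels was not tested. Gapdh, Pgk1, Eno1, Ldha and other members have processed copies in the genome, and reads that fit a copy could be lost or counted there, so these levels may be low. Eno1b, a near copy of Eno1, is a row of its own in the files.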

How the data were processed

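The values are UMI counts per gene and cell in 3 filtered matrices deposited by the authors. Per the file headers the program was Cell Ranger 7.1.0, whereas version 7.2.0, Seurat 5.0.1 and mm10 are listed in the submitters' processing notes. A barcode had to hold 300 genes or more, 500 UMIs or more and no more than 15.0% mitochondrial UMIs. Scrublet doublets with a score over 0.3 were removed (105, 439 and 267 cells), since its own threshold called 0 in Sham. Cells were clustered with Leiden at resolution 1.0 on 2000 variable genes and 30.0 principal components, without integration. Clusters were named from 160 markers of 17 classes by the highest score, the mean of marker levels standardised over clusters. The class then had to pass limits on detected markers, leading genes, depth and relative score. The relative score is the score divided by its maximum over clusters. The doublet threshold and a relative score of 0.5 were set after the data were seen. Levels are sums of UMIs over the cells of a class in a library, divided by all UMIs of those cells (CPM). Ratios of sums have exact conditional binomial intervals, shares exact binomial (Clopper-Pearson) ones, all at 95.0%. Counts of members use (CPM + 1), a fold of 1.5, a mean of 25 CPM and 20 UMIs. Genes named are, per class and comparison, the 4 members with the largest and 2 with the smallest ratios, members highest in a class, hypoxia genes past the floor and in other lists up to 3 genes per class with the largest or smallest ratios. The calculation was tested on simulated counts. The members and lists were chosen with earlier results of these data known. Alternatives covered filters, doublets, scaling, floor, fold, clustering resolution and class assignment. Those on the shallow cluster, the cell cycle and the clusters with at least 50 cells in all libraries were added after seeing the data. Promoters are from RefSeq (GRCm38.p6). Python 3.11.15, scanpy 1.11.5, leidenalg 0.10.2, python-igraph 0.11.9, NumPy 2.4.6, SciPy 1.17.1, pandas 2.3.3, scikit-learn 1.9.0 and matplotlib 3.10.9 were used.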

Additional observations from a re-analysis of the deposited data

Results flagged for a closer look

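For 5 members the ratio to Sham was past 1.5-fold in opposite directions in 2 or more classes, and these differences between classes were not tested, since each group is 1 library. The share of all genes with such opposite ratios was not counted, so the number 5 has nothing to be set against. At D2 Hk1 had a ratio of 1.78 in neutrophils and 0.646 in monocytes/macrophages. At D7 Hk1 had a ratio of 1.62 in neutrophils, 0.598 in monocytes/macrophages and 0.561 in fibroblasts. In fibroblast cluster 10 Hk1 was 27.2 CPM in Sham and 26.7 in D7, and in cluster 14 38.2 and 21.1. Hk2 had a ratio of 1.55 in neutrophils and 0.556 in fibroblasts at D2, and 1.87 and 0.607 at D7. Within the monocyte/macrophage clusters with at least 50 cells in all libraries, the Hk1 ratio was 1.40 at D2 and 1.15 at D7, on the same side of Sham as in neutrophils.

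Gpi1 at D2 had a ratio of 0.438 in neutrophils, against 1.62 in monocytes/macrophages, 1.67 in fibroblasts and 1.97 in endothelial cells. Slc16a3 at D2 had a ratio of 0.581 in neutrophils and 2.91 in monocytes/macrophages. Ndrg1 had a ratio of 0.620 in neutrophils and 1.61 in monocytes/macrophages at D2. Within those monocyte/macrophage clusters the Ndrg1 ratio was 0.969 at D2 and 1.21 at D7, and that of Slc16a3 at D7 was 0.904. At D7 the Ndrg1 ratio was 0.607 in neutrophils, 2.37 in monocytes/macrophages and 2.30 in fibroblasts. Within fibroblast clusters 10 and 14 the Sham and D7 intervals of Ndrg1 overlapped. The neutrophil ratios rest on 148 Sham cells.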

How the results depend on the processing

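Of 230 alternative values of 18 counts, 200 stayed within 1.5 times the reported count, as did 75 of 102 alternative values of 8 counts of lower members, of which 27 moved further. The share of all genes was not counted under the alternatives. With a fold of 2, the count of higher enzymes and transporters was 0 in neutrophils at D2 and 0 at D7, 1 in fibroblasts at D7, 4 in endothelial cells at D2 and 2 at D7, and the count lower in endothelial cells from D2 to D7 was 0. With that fold, the higher hypoxia genes were 1 in neutrophils, 2 in monocytes/macrophages and 1 in fibroblasts, all at D2. With no floor, the higher enzymes and transporters were 5 in neutrophils at D2, 16 in fibroblasts at D2 and 8 at D7, and 14 were lower in fibroblasts from D2 to D7. With no floor, the higher hypoxia genes were 5 in monocytes/macrophages at D7 and 2 (D2) and 3 (D7) in endothelial cells. A floor of 100 CPM left 1 enzyme or transporter in neutrophils at D2, 2 at D7 and 2 in endothelial cells at D7. It left 0 hypoxia genes in neutrophils at both times, 1 in monocytes/macrophages at both times and 1 in fibroblasts at D2. Median-of-ratios scaling gave 1 enzyme or transporter in neutrophils at D2 and 2 at D7. Averaging over cells, and leaving out cells with a cell cycle UMI, each gave 1 hypoxia gene in fibroblasts at D2. In the monocyte/macrophage clusters with at least 50 cells in all libraries (6 and 9), 2 hypoxia genes were higher at D2 and 1 at D7. There 4 ratios changed direction: Hk1 at D2 (1.40) and D7 (1.15), Ndrg1 at D2 (0.969) and Slc16a3 at D7 (0.904). The causes were not tested. Of 1199 alternative values of single ratios, 1037 moved by less than the interval, 158 by more and these 4 reversed. No paired analysis was possible because each group is 1 library. With 1 pool of mice per group, the intervals carry no spread between animals, and D2 has 90 fibroblasts and 89 endothelial cells.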
